A study of Bos taurus with 16 samples.

Results

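The haemoglobin alpha and beta genes were examined in whole blood of 16 crossbred beef steers. The rule named 4 Ensembl identifiers, ENSBTAG00000038748 as HBB and ENSBTAG00000026417, ENSBTAG00000026418 and ENSBTAG00000051412 as HBA genes. Of these 4 genes, 2 were listed among the 27607 genes of the deposited tables, ENSBTAG00000051412 and ENSBTAG00000038748. ENSBTAG00000026417 and ENSBTAG00000026418 were not analysed here. No table used here pairs identifiers with symbols, so both names are those of the rule.

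The steers were the 8 with the highest and the 8 with the lowest residual feed intake (RFI) of a larger group of crossbred growing steers on a high-forage mixed ration. RFI is the feed intake left over after body weight and daily gain are accounted for, and a high value marks a steer that eats more than its growth calls for. Every steer was kept on the same diet, and its blood from several collection days was composited into 1 library. The library kit removes ribosomal and globin RNA with reagents made for human, mouse and rat, so the values describe the globin RNA that was left. Counts on genes ranged from 4.80 to 12.2 M (1 M being 1000000 counts) per steer. Groups are those of the sample labels. The study's own list of read numbers, taken in listed order, followed the counts of the steers only with its group names exchanged. Pearson r was 0.94 and 0.96 with the names exchanged, and -0.23 and -0.30 with the names as given. Sample titles begin with HFE in steers labelled high-RFI and with LFE in those labelled low-RFI. What these letters stand for was not checked, and the paper calls low-RFI steers the efficient ones. Each direction below would turn round if the exchanged names applied.

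Haemoglobin carries oxygen from lung to tissue and part of the carbon dioxide back, and its tetramer holds a pair of alpha chains and a pair of beta chains. Red cells make both chains in balanced amounts. Mammalian red cells have lost their nucleus, and the globin RNA of blood lies mostly in reticulocytes, the youngest circulating red cells. Alpha and beta chains come from separate gene clusters. In the RefSeq annotation of ARS-UCD2.0, the assembly of the reference table, HBA lies directly beside HBA1, with HBM before them and HBQ1 after them, and HBB lies in a cluster with HBE1, HBE4 and HBE2. The deposited counts were made on the earlier assembly ARS-UCD1.2, so positions are not given.

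ENSBTAG00000051412, the alpha globin row, had a count in all 16 steers and a length of 612 bp in the deposited tables. Its raw count ran from 13 to 1545, with a median of 338.5. Divided by the size factor of each steer, the normalized count ran from 15.8 to 1114, a 70.5-fold range. In such a value, fewer young red cells, less globin RNA per cell and more complete globin removal from the library cannot be told apart.

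Among the steers labelled low-RFI, the lowest alpha globin normalized count was 34.9, the median 396 and the highest 1114. Among the steers labelled high-RFI, the lowest was 15.8, the median 139.9 and the highest 804. The groups overlapped almost fully, since 7 of the 8 steers labelled high-RFI lay within the range of the other label and 7 of the 8 labelled low-RFI within theirs. Each group held steers at both ends. Steer 1, labelled low-RFI, and steer 9, labelled high-RFI, were the highest of their groups, and steers 2 and 15 the lowest of theirs.

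**Figure D1:**
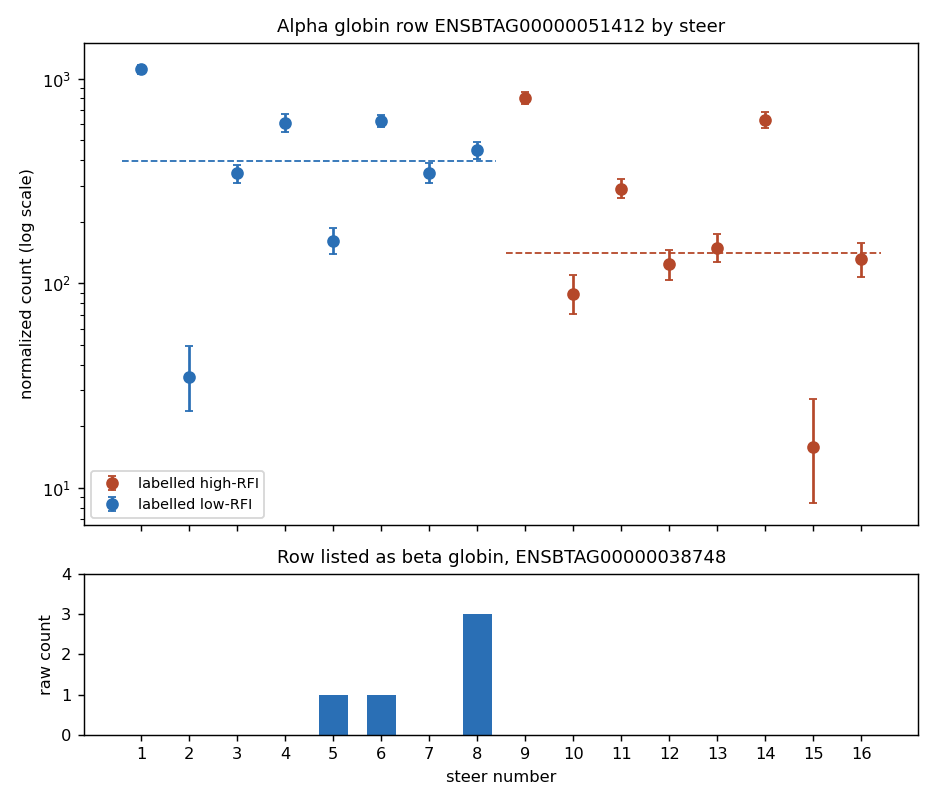
The upper panel plots the normalized count of the alpha globin row ENSBTAG00000051412 (log axis) for each steer, with the exact 95% Poisson interval of the count as bar and the group median as dashed line, and the lower panel the raw count of ENSBTAG00000038748. Steers 2 and 15 lie lowest in the upper panel at 34.9 and 15.8, 1 in each group, and only steers 5, 6 and 8 have a count in the lower panel.

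Counting error was small beside the range between steers. In steer 15, 13 reads gave an exact 95% Poisson interval of 8.41 to 27.0 for the normalized count. In steer 2, 31 reads gave 23.7 to 49.5, and in steer 1, 1545 reads gave 1060 to 1171. These intervals cover counting error alone.

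The place of the alpha globin row on the expression scale differed widely between steers. In FPKM, which are per kilobase of gene length, it ran from 3.12 in steer 15 to 220 in steer 1. In steer 15 this placed the row above 50.9% of the 21016 genes that had a count in any steer. In steer 1 it lay above 98.6% of these genes. By normalized count, it was the 12261st gene of steer 15 and the 1347th of steer 1. In these steers 17006 and 17841 genes had a count. As a share of all counts, the alpha globin row ran from 1.80 to 145 counts per 1000000 (CPM).

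The spread between steers of the same label was 1.64 (SD of log2(normalized count + 1), pooled over both groups). Over the 13265 genes that passed the filter on low counts, the median of this SD was 0.25 and the 95th percentile 0.75. Larger values were found for 48 of these genes. Of the 4244 genes with a mean normalized count within 2-fold of the alpha globin row, 7 had a larger SD, and the median over these 4244 genes was 0.18. In these steers, the label took up 9.39% of the variance of the alpha globin row on this scale. This share makes no allowance for the part that a random label would take up.

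**Figure D2:**
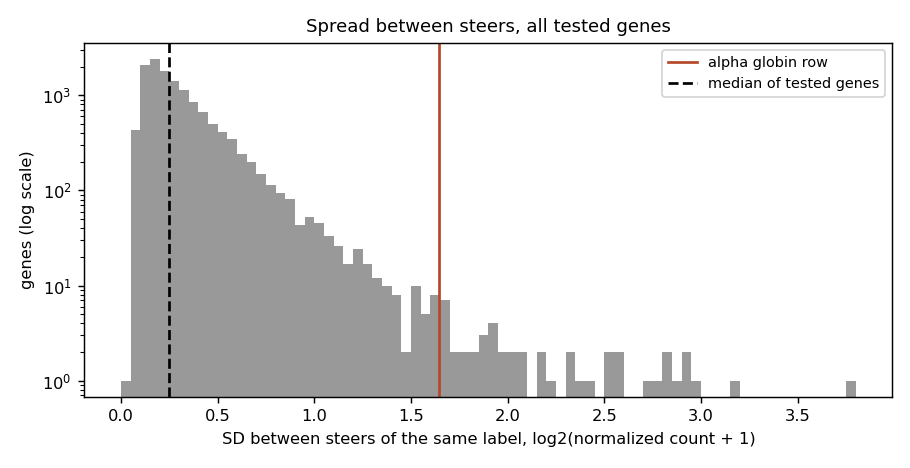
Histogram of the SD between steers of the same label in log2(normalized count + 1), for the 13265 genes tested (gene numbers on a log axis). The alpha globin row, the solid line at 1.64, lies far to the right of the median of 0.25, the dashed line.

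The comparison of steers labelled high-RFI with those labelled low-RFI asked whether globin RNA in blood differed with feed efficiency. Steers labelled high-RFI had an alpha globin normalized count of 279 ± 284 (SD, n = 8), and those labelled low-RFI had 459.6 ± 332 (SD, n = 8). The log2 fold change of high-RFI over low-RFI was -0.73 with a standard error of 0.66, from the quasi-likelihood test of edgeR on the raw counts of all genes, with an unadjusted p of 0.284 and a Benjamini-Hochberg adjusted p of 0.999. Its 95% interval ran from -2.13 to 0.67, that is, from 0.229 to 1.59 times the low-RFI level. The difference was smaller than the spread between steers, and the interval leaves room for a several-fold lower as well as a moderately higher level. The paper reported the erythrocyte gas exchange gene sets, with leading genes HBB, HBA1 and HBA, as enriched in high-RFI steers. That came from a gene set test on ranked fold changes, and no such test was run here. The paper's direction cannot be set against the one here, since its read numbers followed the counts only with group names exchanged.

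On log2(normalized count + 1), the alpha globin row stood at 7.37 ± 1.75 in high-RFI (SD, n = 8) and 8.35 ± 1.52 in low-RFI (SD, n = 8). The difference of -0.99 had p = 0.250 in a two-sided exact permutation test, which ran through every way of splitting the steers into 8 and 8. Of the 64 pairs of 1 steer from each group, the steer labelled low-RFI was higher in 44. The Wald test of DESeq2 gave a log2 fold change of -0.72 with a standard error of 0.67 and an adjusted p of 0.996.

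Of the genes in the rule, 1 passed the filter and 0 were called. Of all 13265 genes tested in edgeR, 0 passed an adjusted p of 0.05 (0%), and 693 had an unadjusted p under 0.05 (5.22%). DESeq2 called 7 of the 21016 genes with a count (0.0333%), neither globin row among them. Any gene to which DESeq2 gave no adjusted p was counted as not called. By size alone, 111 of the 13265 genes had a larger absolute log2 fold change than the alpha globin row, against a median of 0.09 over all of them. By unadjusted p, it was the 3757th.

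The direction was the same in each alternative tried. Over 11 alternatives that keep all steers, the log2 fold change of the alpha globin row ran from -0.99 to -0.72, with adjusted p from 0.857 to 0.999. Leaving out 1 steer at a time moved it more, from -1.18 without steer 9, labelled high-RFI, to -0.39 without steer 1, labelled low-RFI. Adjusted p then ran from 0.864 to 0.9999. Scaling the libraries without the globin rows left it at -0.73.

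**Figure D3:**
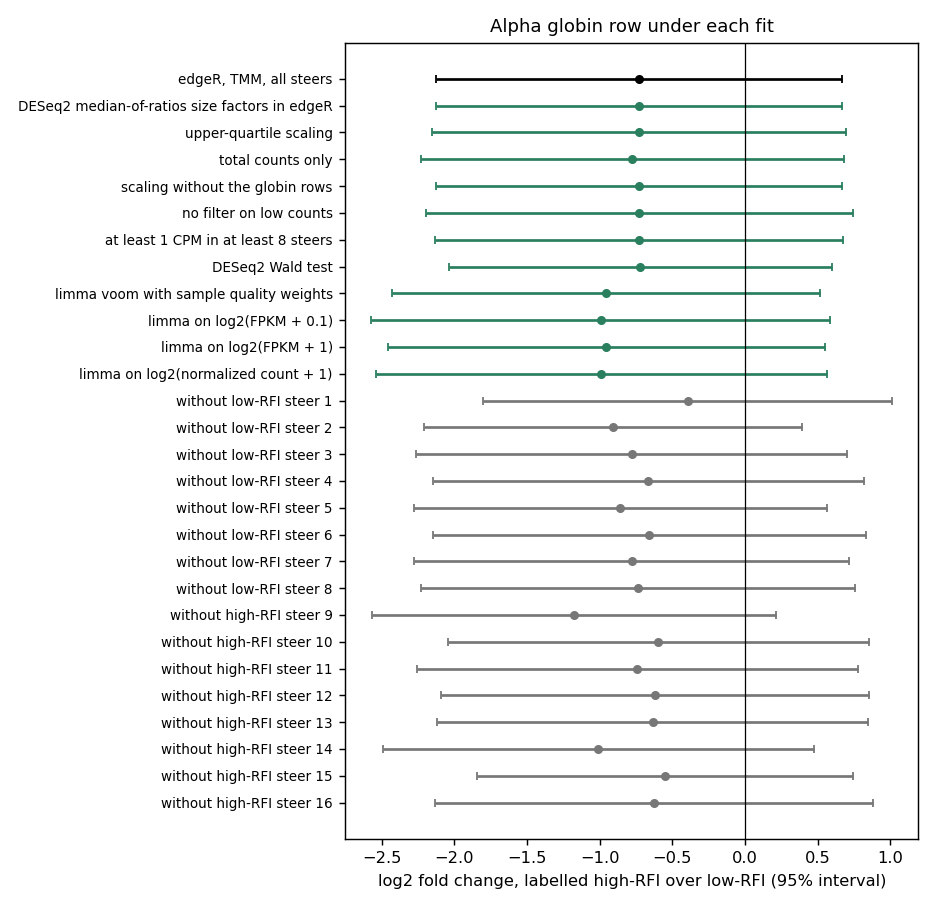
Log2 fold change of the alpha globin row, steers labelled high-RFI over low-RFI, with its 95% interval, for the edgeR comparison (black), the alternatives that keep all steers (green) and those that leave out 1 steer (grey). Estimates lie between -1.18 and -0.39, and each interval includes 0.

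ENSBTAG00000038748, the row named HBB, was close to empty. It had a length of 629 bp, near that of the alpha globin row, but held 5 counts in all, among 135 M counts of the 16 steers. Steer 8 had 3 of them and steers 5 and 6 had 1 each, all labelled low-RFI. The other 13 steers were at 0, the 8 steers labelled high-RFI among them.

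These counts lie at the floor of detection. By the floor used here, a count of 0 allows up to 3 reads in a steer (a one-sided limit), or between 0.246 and 0.625 CPM depending on the depth of the steer, and no steer exceeded 3 reads. Summed over the groups, the share was 0 of 65.2 M counts in high-RFI (exact two-sided 95% Poisson interval 0 to 0.0566 CPM, slightly wider than the floor of 3 reads, 0.046 CPM) and 5 of 69.8 M in low-RFI (0.0716 CPM, interval 0.0233 to 0.167). No fold change is given, as every steer was at or under the floor of 3 reads per library. The row did not pass the filter and was not tested in the filtered edgeR comparison. It entered DESeq2 and the edgeR alternative without a filter, and neither called it.

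The values of this row did not bear out its name, but with 5 counts in all they cannot show it to be wrong. Red cells make alpha and beta chains together, but the steers with the most alpha globin reads, steers 1, 6 and 9, had 0, 1 and 0 reads on this row. The parts of the globin removal step and of the naming of the row in this were not tested. Over the 16 steers the rows had Pearson r = 0.18 (permutation p = 0.508) and Spearman rho = 0.181 (permutation p = 0.509) on log2(normalized count + 1). The adjusted p over the 6 coefficients computed was 0.522 for each. Without steers 2 and 15, farthest from the median, r was 0.09. With 13 steers tied at 0, these coefficients say little about whether the rows move together. The ratio of alpha to beta globin could not be formed for the same reason.

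No relation of the alpha globin count to sequencing depth was detected over the 16 steers. With the log2 total count of the steer, Pearson r was 0.17 (permutation p = 0.522) and Spearman rho 0.203 (permutation p = 0.45), adjusted p 0.522 for each. Without steers 4 and 6, the shallowest and the deepest, r was 0.39. Within the steers labelled high-RFI it was 0.09, and within those labelled low-RFI 0.20.

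Other genes followed the alpha globin row from steer to steer. The measure of likeness was Spearman's rho with the summed normalized count of the globin rows over the 16 steers, among 13264 other genes. Over these, the median rho was -0.01, and 32 genes had a rho of at least 0.8. The same limit was reached by a median of 6 partner genes over all genes tested, and 12.3% of genes had more partners than the alpha globin row. In the edgeR comparison of the labels, 0 of the 32 genes passed an adjusted p of 0.05, as did 0 of all 13265 tested. An unadjusted p under 0.05 was found for 1 of the 32, against 5.22% of all genes tested. As the 32 genes were chosen for moving with the alpha globin row in the same steers, their directions are no separate measurement.

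The gene most like it was ENSBTAG00000054844, with a rho of 0.99 over 16 steers and of 1 within each label. Its length was 706 bp. Its raw counts were nearly those of the alpha globin row in each steer, from 13 in steer 15 to 1590 in steer 1, and 3 steers had the same count on both rows. The ratio of its raw count to that of the alpha globin row ran from 0.954 to 1.118, with a median of 1.02. In 15 of the 16 steers its count lay within the exact 95% Poisson interval of the alpha globin count. Per kilobase, its FPKM was between 0.827 and 0.969 times that of the alpha globin row. The tables used here do not name it. The sources used here do not give how reads that fit more than 1 gene were counted, so whether these rows count separate RNAs or share reads cannot be told apart.

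The next was ENSBTAG00000013178, with a rho of 0.95 over all steers, 0.95 within high-RFI and 0.98 within low-RFI. Its length was 2006 bp, and its normalized count ran from 103 in steer 15 to 6236 in steer 6, a 60.4-fold range. Its raw counts of 85 to 9132 exceeded those of the alpha globin row in each steer, and per kilobase its FPKM was between 1.14 and 3.06 times as high. This ratio was more variable than that of ENSBTAG00000054844, and highest in steer 6, labelled low-RFI.

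Neither of these genes was called between the labels. ENSBTAG00000054844 had a log2 fold change of -0.80 with a standard error of 0.66 and an adjusted p of 0.998 in edgeR. ENSBTAG00000013178 had -0.28 with a standard error of 0.77 and an adjusted p of 0.999. Its normalized count had a median of 855 in high-RFI (lowest 103, highest 6100) and of 2360 in low-RFI (lowest 155, highest 6236), so the ranges overlapped almost fully.

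In the other direction, 3 genes had a rho of -0.8 or less with the alpha globin row. This number depended on the measure and on the steers, being 0 by Pearson r on log2(normalized count + 1) and 13 by rho without steers 2 and 15. The lowest in rho were ENSBTAG00000000820, at -0.84, and ENSBTAG00000014267, at -0.84, with Pearson r of -0.68 for each. Their ranges were far narrower than that of the alpha globin row, 7.09-fold for ENSBTAG00000000820 (79.3 to 562 normalized counts) and 1.96-fold for ENSBTAG00000014267 (63.2 to 123.8). ENSBTAG00000000820 was highest in steer 2, labelled low-RFI, which had the lowest alpha globin count of its group, and its rho within the labels was -0.57 in high-RFI and -0.45 in low-RFI. ENSBTAG00000014267 kept a rho of -0.81 within high-RFI and -0.90 within low-RFI. In edgeR, ENSBTAG00000000820 had a log2 fold change of -0.16 (standard error 0.27) and ENSBTAG00000014267 one of 0.11 (standard error 0.13), each with an adjusted p of 0.999.

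**Figure D4:**
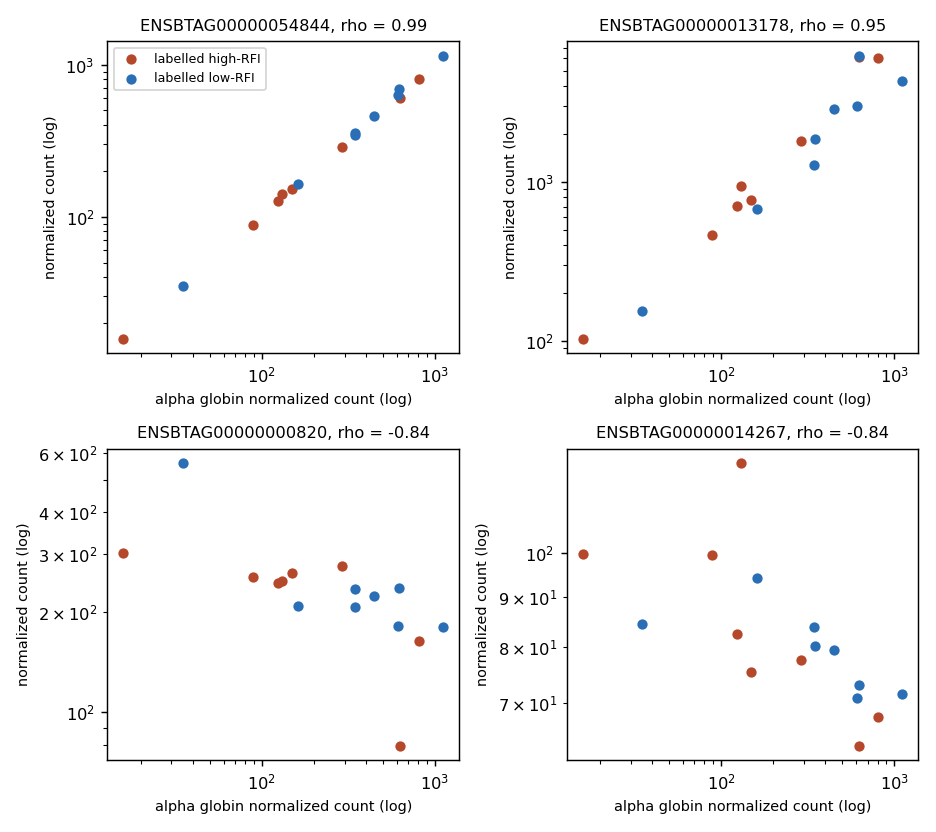
Normalized count of the 2 genes most like the alpha globin row (upper panels) and the 2 most opposite to it (lower panels) against the alpha globin normalized count, 1 point per steer, all axes logarithmic and each panel with its own scale. The points of ENSBTAG00000054844 form a near-straight line from steer 15 to steer 1, and the lower panels span 7.09-fold and 1.96-fold on their vertical axes.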

How the data were processed

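Whole-blood RNA of 16 steers was grouped by the RFI label, with the number in the sample title as steer number. According to the submitters' processing notes, reads were trimmed with Trimmomatic 0.39 and aligned to ARS-UCD1.2 with HISAT2 2.2.1. The authors deposited raw counts per gene (4.80 to 12.2 M per steer), the normalized counts, a signal obtained by dividing by 1 size factor per steer, and FPKM, which are normalized counts per kilobase, divided by 1 constant common to all steers. With the geometric mean of the total counts as this constant, the lengths recovered for 21016 genes were whole bp within a tolerance of 0.001 in 100%. The annotation, the use of strand and the treatment of reads fitting several genes are not given in the sources used here.

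Raw counts of all genes were compared with edgeR 4.0.16 (TMM, filterByExpr, robust glmQLFit, Benjamini-Hochberg adjustment, no covariates) in R 4.3.3. The standard error is the absolute log2 fold change over the square root of F. DESeq2 1.42.0, limma 3.58.1, other scalings and filters, FPKM with pseudocounts of 0.1 and 1, normalized counts with a pseudocount of 1, and leaving out each steer were alternatives. The code of the comparisons was tried on simulated counts that had the same dispersion (spread beyond counting error) for every gene. This does not measure error or power for the alpha globin row, whose dispersion in edgeR was 0.717. Correlations had permutation tests with 100000 resamples, adjusted over 3 relations and 6 coefficients.

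The members and lists were chosen with earlier results of these data known. The genes named are the identifiers of the rule and the 2 genes most and 2 least like the globin rows. Lists fixed by symbol (other haemoglobins, haem synthesis, red-cell membrane and gas exchange, haem scavenging, blood cell markers) were not analysed, as 0 identifiers could be paired with symbols. The tissue was thus not checked by markers.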

Additional observations from a re-analysis of the deposited data

Results flagged for a closer look

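Dixon's 95% limit on the gap between the most extreme steer and its neighbour was applied to 8 sets of 8 steers. These were the normalized and log2 normalized counts of the alpha globin row, the normalized counts of ENSBTAG00000038748 and the total counts, each within 1 label. In 1 set the limit was passed. For continuous, normally distributed values, chance alone passes it in about 1 set in 20. That rate need not hold for a row of a few reads. The sets are also not separate tests, as the alpha globin row enters on both scales. Steer 8, labelled low-RFI, had 2.90 normalized counts of ENSBTAG00000038748, while its neighbour in the low-RFI set had 0.889, a gap of 0.694 of the whole range. This is a difference between 3 reads and 1 read, and the exact 95% Poisson interval of steer 8, from 0.598 to 8.48 normalized counts, includes the neighbour's value. The steers labelled high-RFI were all at 0 for this row and have no range.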

How the results depend on the processing

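The log2 fold change of the alpha globin row kept its direction and stayed short of an adjusted p of 0.05 in the 11 alternatives that keep all steers and in the 16 that leave out 1 steer (-1.18 to -0.39). The number of genes past an adjusted p of 0.05, 0 in edgeR, was 7 with DESeq2 and 13 with limma voom with sample quality weights, and 0 to 25 without 1 steer, above 0 without steers 14 (25 genes) and 16 (2 genes), both labelled high-RFI. The cause was not tested. The summed globin share differed by -23.9 CPM between the labels (high-RFI 33.9 ± 35.4 and low-RFI 57.8 ± 43.5, SD, n = 8 each), by -32.5 between medians, and by -33.3 to -11.4 without 1 steer. The fall to -11.4 came without steer 1, labelled low-RFI. The correlations kept their sign in each alternative that gave a value. In settings chosen after seeing the data, the 32 genes that follow the alpha globin row became 25 by Pearson r (21 of the 32 shared), 36 without steers 2 and 15 (21 shared) and 15 when the limit was set within each label. The 3 genes opposite to it became 0 by Pearson r and 13 without steers 2 and 15. No value was given for ENSBTAG00000038748 or for the ratio of alpha to beta globin, with 13 steers at 0. No paired analysis was possible because the groups share no replicate number. Depth limits ENSBTAG00000038748 to a floor of 3 reads, and leaves 13 reads of the alpha globin row in steer 15.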
